A study of Chlorocebus sabaeus with 6 samples.

Results

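Desmosomes are spot-like junctions that fasten the intermediate filaments of neighbouring cells to each other. Their desmosomal cadherins, the desmogleins and desmocollins, span the membrane and bind those of the next cell. Inside the cell the cadherin tails hold plakoglobin and plakophilins, and these in turn hold desmoplakin, which anchors the filaments. Desmosomes are best known from skin, other epithelia and heart muscle.

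Transcripts of 10 desmosome genes were followed in COS7, a line derived from African green monkey kidney (Chlorocebus sabaeus) and immortalised with SV40. The genes were picked by symbol from the 18050 genes of the deposited table: DSP, JUP, PKP1, PKP2, PKP3, PKP4, DSG2, DSC2, DSC3 and PERP. All 10 symbols were found, each on 1 row. The study set 3 samples of COS7 cells in which ATL2 and ATL3 had been knocked out together (DKO) beside 3 samples of wild-type COS7 cells (WT), both kept in DMEM with fetal bovine serum, penicillin and streptomycin. Both genes encode atlastins, GTPases that join the tubules of the endoplasmic reticulum into a network. The labels do not say how the knockout was made, how many clones it represents or whether the samples of a group were separate cultures, so p-values cover the spread of these samples alone, and that spread may be technical. The genes were chosen with results of DKO against WT in view. Their differences are therefore given as a description, and no p-value is attached to them.

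The libraries held between 14197344 and 15693049 estimated counts. ATL2 was at 7.38, 6.65 and 3.78 FPKM (fragments scaled by the authors to transcript length and library depth) in DKO, against 30.54, 29.17 and 32.16 FPKM in WT. ATL3 was at 5.22, 5.93 and 3.50 FPKM in DKO, against 37.33, 34.73 and 35.36 FPKM in WT. Both targeted transcripts were thus lower in every DKO sample but still counted. DKO replicate 3 lay apart: its mean absolute log2 difference per gene was 0.525 and 0.539 from DKO replicates 1 and 2, which differed by 0.137 from each other, while the WT pairs differed by 0.137 to 0.161. Without it the edgeR test called 74.6% of all genes, so that counts of calls given without this library stand beside that share and not beside the share from all 6 libraries.

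In DKO cells 4 of the 10 genes fell, 2 rose, 3 were not called and 1 was too low to test. DSP and DSC3 were at or near 0 counts, JUP was at 7.09% of its WT mean, and PKP2 was at 56.6%. PKP3 and DSG2 rose to 192% and 165% of their WT means. PKP4, DSC2 and PERP did not pass the test, and PKP1 had 1 count in all 6 libraries together. A gene was called at an edgeR adjusted p below 0.05 over the 13094 genes tested, of which 45.5% were called, 23.3% higher and 22.2% lower in DKO. The members' count of 6 called among 9 tested stands beside that share and is read no further, since the genes were chosen on this contrast. The median log2 fold change of the 9 tested members was -0.33, beside -0.01 for all tested genes. In counts scaled for library size, the 3 samples of each group did not overlap for 7 of the 9, beside 62.5% of all tested genes. In a bulk sample, fewer cells that express a gene and less RNA per cell cannot be told apart.

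**Figure D1:**
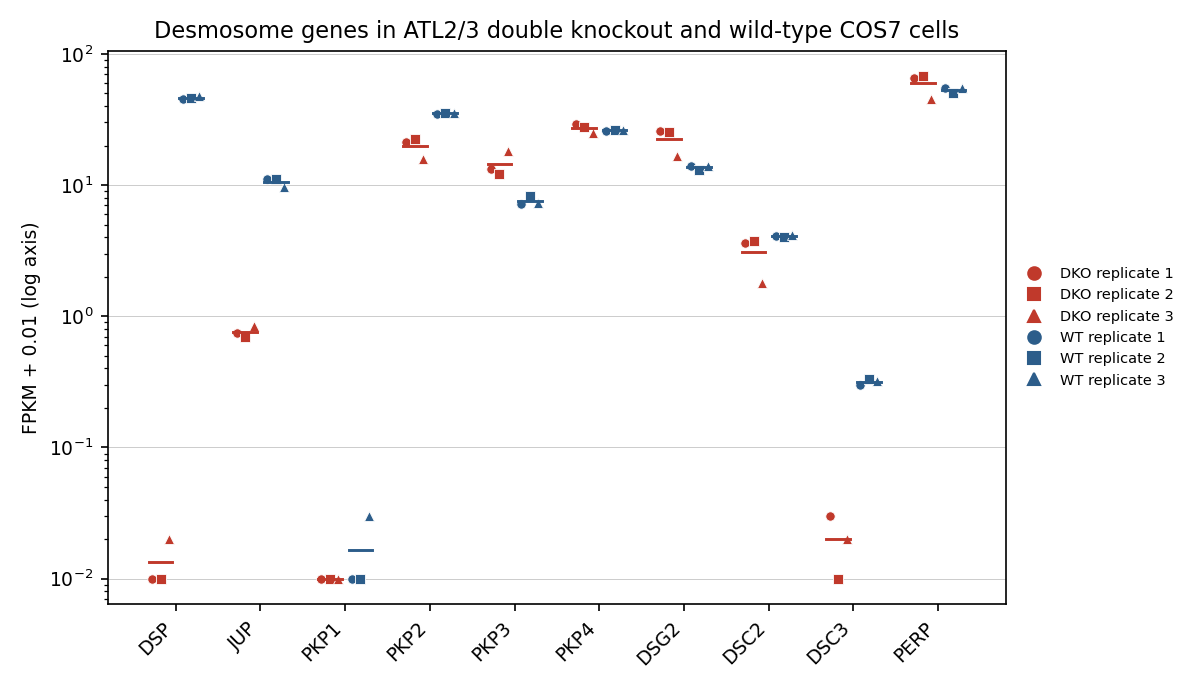
Level of each of the 10 desmosome genes in every sample, as FPKM + 0.01 on a log axis, with DKO in red left of WT in blue; symbols mark replicate numbers and lines the group means. DSP reached 0.01 FPKM in DKO against 45.61 to 47.89 FPKM in WT, while for PERP, and likewise for PKP4, the samples of both groups lay close together.

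DSP encodes desmoplakin, the plaque protein that binds the intermediate filaments. It (gene ID 103222210) had 0, 0 and 1 estimated counts in DKO, against 5951, 5899 and 6247 counts in WT. In FPKM it was listed at 0, 0 and 0.01 in DKO, against 45.61, 45.72 and 47.89 in WT. The single DKO count was in replicate 3, and the groups were far apart. Scaled for library size, WT over DKO was a ratio of 17300 with an exact 95% counting interval from 3105 to 683369. Without DKO replicate 3 the group held no DSP count, and DSP was at least 1890-fold lower against a floor of 3 counts per library. These bounds and intervals cover counting error only. In WT, DSP was among the abundant transcripts of the line, above 88.0% of the genes in the table per length.

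JUP encodes plakoglobin, an armadillo protein that links the cadherin tails to desmoplakin and is a close relative of beta-catenin. It (gene ID 103243439) had 32, 30 and 41 counts in DKO, against 510, 513 and 453 counts in WT. Its level was 0.73, 0.69 and 0.84 FPKM in DKO, against 11.02, 11.14 and 9.73 FPKM in WT. Every DKO library kept a low level, and the groups did not overlap. The means were 0.753 ± 0.0777 FPKM in DKO and 10.6 ± 0.782 FPKM in WT (SD, n = 3 each). The log2 fold change was -3.77 (SE 0.16). It was -3.90 in a fit that left out DKO replicate 3.

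Beta-catenin, which binds classical cadherins and carries Wnt signals, gives a measure of how the related pool was made up. CTNNB1, its gene, was at 71.84, 69.68 and 73.66 FPKM in DKO, against 93.35, 90.85 and 95.11 FPKM in WT. It was called lower (log2 fold change -0.33, SE 0.09, edgeR adjusted p = 0.019), a call that was lost when any sample other than DKO replicate 3 was left out. JUP made up 1.04 ± 0.0786% of the summed FPKM of both genes in DKO and 10.3 ± 0.862% in WT (SD, n = 3 each).

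Plakophilins are armadillo proteins, of which PKP1, PKP2 and PKP3 bring desmoplakin to the junction in the outer plaque. PKP2, the plakophilin of heart and simple epithelia, was at 21.46, 22.48 and 15.74 FPKM in DKO, against 34.62, 35.25 and 35.49 FPKM in WT. All DKO samples lay below all WT samples, with replicate 3 the lowest. Its log2 fold change was -0.79 (SE 0.13), and -0.67 without DKO replicate 3.

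PKP3, found in most epithelia, went the other way. It was at 13.17, 12.14 and 18.10 FPKM in DKO, against 7.14, 8.18 and 7.28 FPKM in WT. All DKO samples lay above all WT samples, and here replicate 3 was the highest. The log2 fold change was 0.99 (SE 0.20), and 0.75 without DKO replicate 3.

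PKP4, which is also found at adherens junctions, was at 28.95, 27.77 and 24.91 FPKM in DKO, against 25.81, 26.20 and 26.14 FPKM in WT. The groups overlapped in FPKM through DKO replicate 3, although in scaled counts they did not. Its log2 fold change of 0.10 (SE 0.09) was not called. A fit that left out DKO replicate 3 called it at 0.13. PKP1, the plakophilin of stratified epithelia, had no count in DKO and 1 count in WT, in replicate 3, and was under the filter on low counts.

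Summed over the plakophilins the level was 63.6, 62.4 and 58.8 FPKM in DKO, against 67.6, 69.6 and 68.9 FPKM in WT. The make-up differed more than the sum. PKP2 was 32.2 ± 4.81% of the sum in DKO and 51.1 ± 0.443% in WT, PKP3 was 23.7 ± 6.22% in DKO and 11 ± 0.683% in WT, and PKP4 was 44.1 ± 1.60% in DKO and 37.9 ± 0.285% in WT (SD, n = 3 each). The leading plakophilin was PKP4 in all 3 DKO samples and PKP2 in all 3 WT samples. PKP2 over PKP3 was a ratio of 1.63, 1.85 and 0.87 in DKO, against 4.85, 4.31 and 4.88 in WT.

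**Figure D2:**
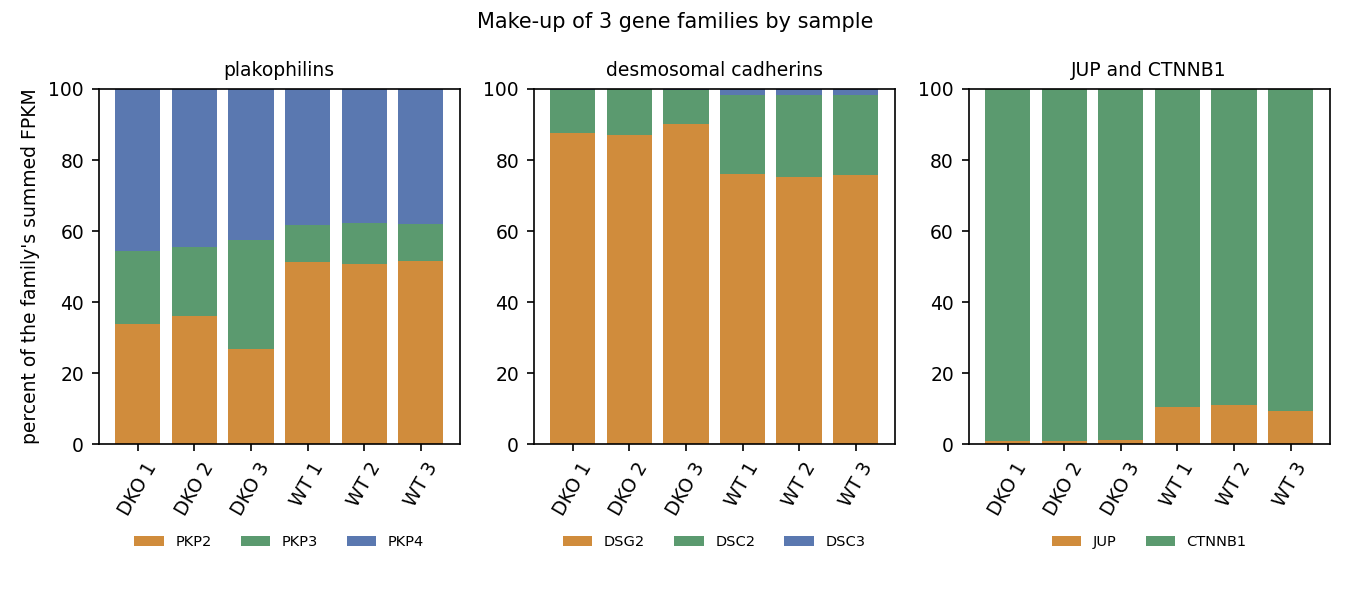
Share of each gene in the summed FPKM of its family (percent), by sample, with the 3 DKO samples left of the 3 WT samples. DSG1, DSG3, DSC1 and PKP1 are too low to be drawn; JUP fills about 1.04% of its bar in DKO and 10.3% in WT.

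Among the desmosomal cadherins, DSG2 and DSC2 are the pair that nearly all desmosome-bearing tissues use. DSG2 had 2021, 1974 and 1451 counts in DKO, against 1147, 1073 and 1161 in WT. It was at 25.69, 25.27 and 16.60 FPKM in DKO, against 13.86, 13.04 and 13.94 FPKM in WT. The groups did not overlap, though replicate 3 stood between the other DKO samples and WT. The log2 fold change was 0.76 (SE 0.16), and 0.91 without that library.

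DSC2 was at 3.61, 3.76 and 1.79 FPKM in DKO, against 4.07, 4.01 and 4.14 FPKM in WT. Only replicate 3 was far below WT, and in scaled counts the groups overlapped. Its log2 fold change of -0.33 (SE 0.27) was not called, and it was -0.07 without DKO replicate 3. DSG2 over DSC2 was therefore a ratio of 7.12, 6.72 and 9.27 in DKO, against 3.41, 3.25 and 3.37 in WT.

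DSC3, a desmocollin of the basal layers of stratified epithelia, was low in both groups. It had 1, 0 and 1 counts in DKO, against 21, 23 and 22 counts in WT. The DKO level was 3.17% of the WT level (exact 95% counting interval 0.376 to 11.9%), and 2.42% (0.0603 to 13.9%) without replicate 3. DSG1, DSG3 and DSC1, the cadherins of the upper and basal epidermis, had 2, 2 and 1 counts over the 3 DKO libraries, against 0, 0 and 2 over the 3 WT libraries, too few for a fold. DSG4 was not analysed here.

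The summed level of the desmosomal cadherins was 29.4, 29.0 and 18.4 FPKM in DKO, against 18.2, 17.4 and 18.4 FPKM in WT. DKO replicate 3 thus lay level with WT replicate 3, while DKO replicates 1 and 2 lay above all WT samples. DSG2 made up 88.2 ± 1.65% of the sum in DKO and 75.6 ± 0.493% in WT (SD, n = 3 each). DSG2 over JUP was a ratio of 35.2, 36.6 and 19.8 in DKO, against 1.26, 1.17 and 1.43 in WT, so that in DKO the transcripts of the main desmosomal cadherin exceeded those of plakoglobin many times over.

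PERP, a tetraspan membrane protein of desmosomes and a target of the p53 family, had the highest level of the 10 genes in both groups. It was at 65.59, 67.91 and 44.90 FPKM in DKO, against 54.76, 50.68 and 54.89 FPKM in WT. DKO replicates 1 and 2 lay above WT and replicate 3 below it. Its log2 fold change of 0.19 (SE 0.14) was not called. Without replicate 3 it was 0.32 and was called, and 4 members were then higher and 4 lower among the 9 tested.

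**Figure D3:**
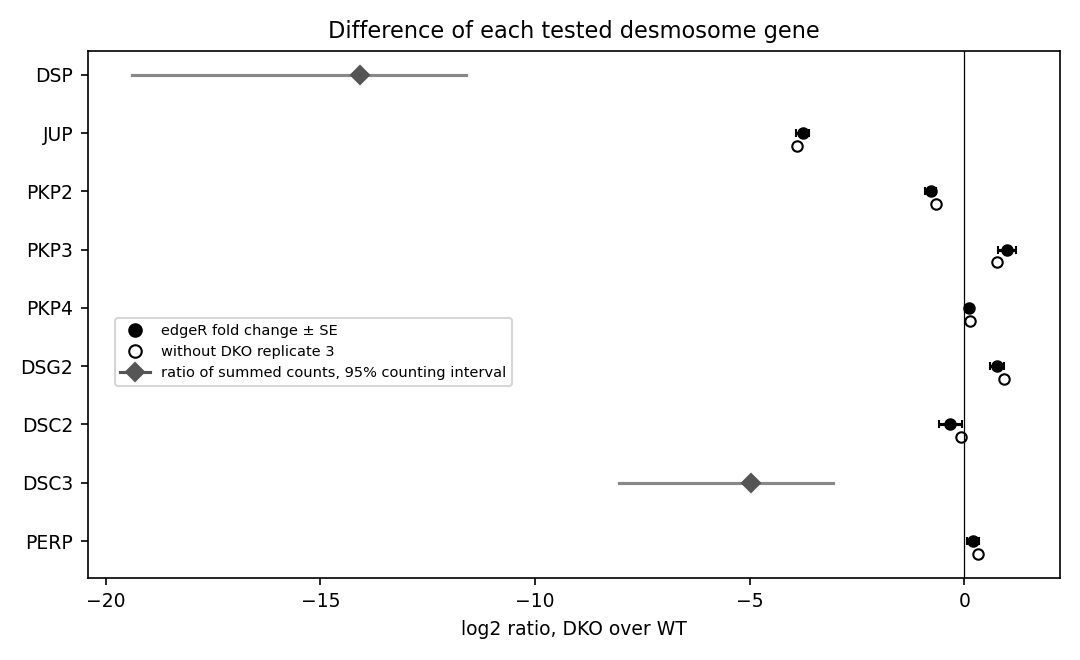
Log2 ratio of DKO over WT for the 9 tested genes. Filled circles are edgeR fold changes ± SE, open circles the same without DKO replicate 3, and diamonds (DSP, DSC3) ratios of summed counts with exact 95% counting intervals. DSP, JUP and DSC3 lie far to the left and the other genes within 1 log2 unit of 0.

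The order of levels, set per length, differed most at DSP, which was rank 9 in DKO and rank 2 in WT. In DKO the order of mean FPKM was PERP (59.5), PKP4 (27.2), DSG2 (22.5), PKP2 (19.9), PKP3 (14.5), DSC2 (3.05), JUP (0.753), DSC3 (0.01), DSP (0.00333) and PKP1 (0). The ranges of PKP4 and DSG2 overlapped, as did those of DSG2 and PKP2, of PKP2 and PKP3, and of the last 3 genes. In WT the order was PERP (53.4), DSP (46.4), PKP2 (35.1), PKP4 (26.1), DSG2 (13.6), JUP (10.6), PKP3 (7.53), DSC2 (4.07), DSC3 (0.307) and PKP1 (0.00667). There no 2 neighbours in the order had overlapping ranges. The summed FPKM of the 10 genes was 159, 160 and 123 in DKO, against 197, 195 and 200 in WT. Without DSP the sums were 159, 160 and 123 in DKO, against 152, 149 and 152 in WT.

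DKO replicate 3 did not shift all members alike. Its FPKM over the mean of DKO replicates 1 and 2 was 0.486 for DSC2, 0.651 for DSG2, 0.673 for PERP, 0.716 for PKP2 and 0.878 for PKP4. The same ratio was 1.18 for JUP and 1.43 for PKP3. Over 11204 tested genes above 1 FPKM in DKO it had quartiles of 0.669 and 1.26 and a median of 0.990, so that DSC2 and DSG2 on one side and PKP3 on the other lay outside the middle of all genes. What sets this library apart was not tested.

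The genes beside the members showed whether neighbours moved in the same direction. Their order came from RefSeq (assembly mChlSab1.0.hap1), leaving out annotated genes that the table does not hold. On one side of DSP, the kinase gene RIOK1 was at 36.57, 37.53 and 22.21 FPKM in DKO, against 34.93, 35.44 and 39.33 FPKM in WT, and it was not called (log2 fold change -0.15, SE 0.18, edgeR adjusted p = 0.53). CAGE1, next beyond it, had 2 counts in DKO and 6 in WT. On the other side the splicing gene SNRNP48 was not called (-0.33, SE 0.31, edgeR adjusted p = 0.42), and BMP6, which encodes a bone morphogenetic protein, was higher, at 2.92 ± 0.536 FPKM in DKO and 0.203 ± 0.0874 FPKM in WT (SD, n = 3 each; 3.86, SE 0.28, edgeR adjusted p = 6.2e-05). CAGE1 was under the filter on low counts and could not be called. None of RIOK1, SNRNP48 and BMP6 was called lower, beside 22.2% of all tested genes, and so few genes are read no further.

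DSG2, DSG3, DSG1, DSC1, DSC2 and DSC3 stood in this order in 1 cluster, with members that differed in direction: DSG2, at one end, was higher in DKO, and DSC3, at the other, lower. TTR and B4GALT6 followed on the DSG2 side. TTR had 4 counts in DKO and 8 in WT, and B4GALT6, a sugar transferase gene, was not called (0.40, SE 0.32, edgeR adjusted p = 0.35). It was called higher when DKO replicate 3 was left out (0.69, edgeR adjusted p = 2.4e-06). On the DSC3 side the next gene in the table was CDH2, which encodes N-cadherin, at 173 ± 42.3 FPKM in DKO and 186 ± 7.34 FPKM in WT (SD, n = 3 each). It was not called (-0.08, SE 0.16, edgeR adjusted p = 0.73), and without DKO replicate 3 it was called higher (0.09, edgeR adjusted p = 0.049). CHST9, after it, had 8 counts in DKO and 16 in WT. Beside JUP, the collagen chaperone gene FKBP10 was higher (0.52, SE 0.16, edgeR adjusted p = 0.037), a call lost without any 1 of the WT samples. P3H4 was not called (0.28, SE 0.12, edgeR adjusted p = 0.10), but was called higher without DKO replicate 3 (0.17, edgeR adjusted p = 0.02). HAP1 and GAST had 12 and 14 counts in DKO, against 35 and 24 in WT.

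**Figure D4:**
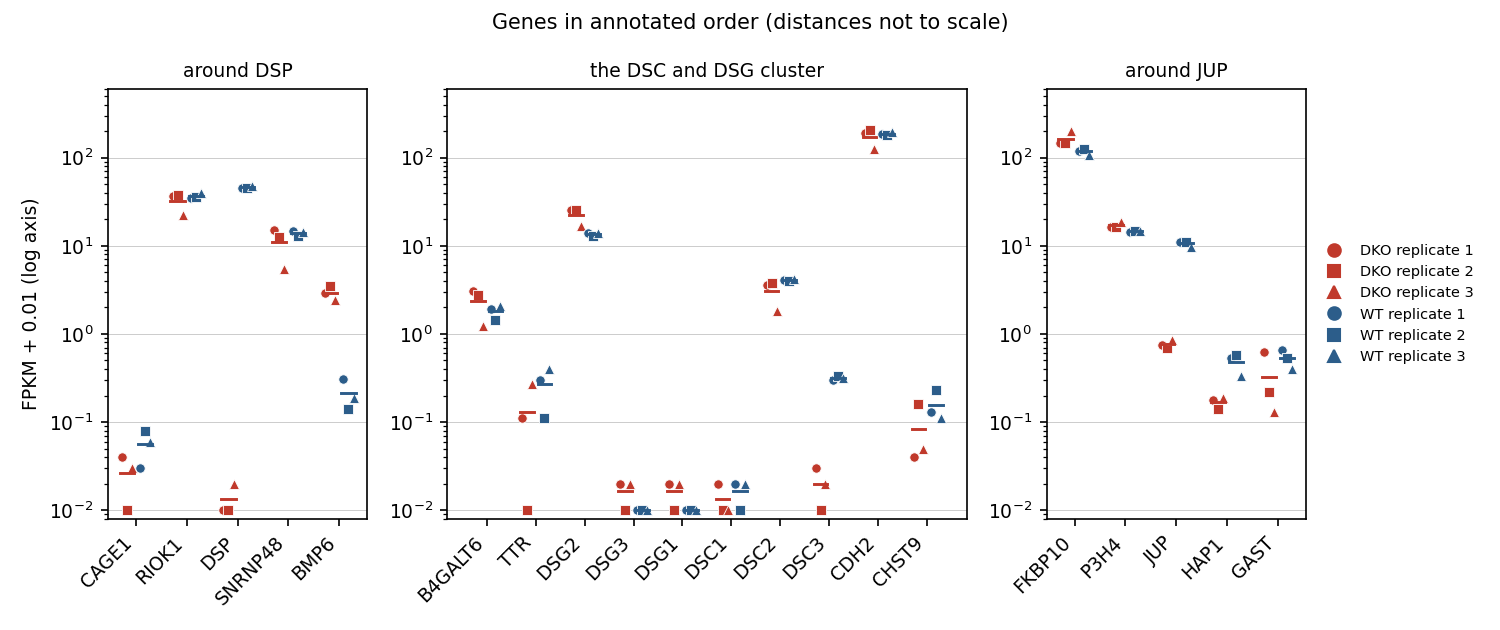
FPKM + 0.01 (log axis) of DSP, the DSC and DSG cluster and JUP with the 2 nearest genes of the table on each side, in annotated order, DKO in red left of WT in blue; lines are group means. In their panels DSP and JUP are lower in DKO by more than any gene beside them, and DSG2 and DSC3 differ in opposite directions within 1 cluster.

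Genes with profiles most like DSP were found by the Euclidean distance of log2(FPKM + 1) over the 6 samples among 18040 other genes, whose median distance was 8.74. The 5 nearest were ALDH1A1 (distance 0.262), LHX1 (0.818), COL11A1 (0.935), IGF2BP3 (1.01) and VAMP8 (1.27). ALDH1A1, which encodes a retinaldehyde dehydrogenase, was at 0.11, 0.10 and 0.09 FPKM in DKO, against 48.20, 48.90 and 48.04 FPKM in WT. LHX1, a homeobox gene of the early kidney, was at 0.04, 0.15 and 0.08 FPKM in DKO, against 34.62, 35.55 and 31.65 FPKM in WT. These genes were picked for matching DSP in these samples, so their likeness follows from the choice. They show only that some genes outside the desmosome also fell to near 0. For PKP3, the member that rose most on this scale, the nearest were PICK1 (0.156), FAM219A (0.202), IDUA (0.262), P4HTM (0.264) and ARHGEF17 (0.266). All were higher in replicate 3 than in the other DKO samples, like PKP3. As the distance covered DKO replicate 3, that likeness too follows from the choice.

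Other genes of the desmosome and its surroundings were taken from 6 lists. In each, and in the marker lists after them, the called members are read against the 45.5% called among all tested genes. Where DKO replicate 3 is left out, they are read against 74.6%. Fits without any other sample each have their own share, so counts from them are read against neither share and no further. Of 9 further desmosomal and cornified plaque genes 5 were tested, with 1 higher, 1 lower and 3 not called, and a median log2 fold change of 0.14 beside -0.01 for all tested genes. PPL, which encodes periplakin, a plakin related to desmoplakin, was at 1.36, 1.31 and 2.19 FPKM in DKO, against 15.88, 17.28 and 15.34 FPKM in WT (-3.27, SE 0.24, edgeR adjusted p = 7.1e-05). KAZN, which encodes a periplakin-binding protein, was higher at a low level, with 1.10 ± 0.0666 FPKM in DKO and 0.537 ± 0.0702 FPKM in WT (SD, n = 3 each; 1.08, SE 0.16, edgeR adjusted p = 0.0017). Counts moved to 3 higher and 1 lower without DKO replicate 3, and to 2 and 1 without DKO replicate 1.

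Of 12 intermediate filament partners and linkers 9 were tested, with 3 higher, 3 lower and 3 not called (median -0.17). Several intermediate filament genes were abundant in both groups. KRT7, the highest keratin of the list, was at 879 ± 133 FPKM in DKO and 642 ± 22.5 FPKM in WT. It was called higher (0.51, SE 0.14, edgeR adjusted p = 0.025). Without any 1 WT sample, and with the replicate block, only 2 genes of the list were called higher. Whether KRT7 was among them is not given here, so its call may not hold in those fits. VIM was at 1318 ± 51.4 FPKM in DKO and 1533 ± 20.3 FPKM in WT and was not called (-0.17, SE 0.07, edgeR adjusted p = 0.079). Without DKO replicate 3 it was called lower (-0.18, edgeR adjusted p = 6.2e-06). KRT18, which pairs with KRT8 in simple epithelia, was at 96.47, 98.70 and 121.97 FPKM in DKO, against 195.17, 189.70 and 183.35 FPKM in WT (-0.78, SE 0.15, edgeR adjusted p = 0.0052). KRT8 was at 451 ± 80.7 FPKM in DKO and 508 ± 42.9 FPKM in WT and was not called (-0.10, SE 0.18, edgeR adjusted p = 0.70), but was called lower without DKO replicate 3 (-0.33, edgeR adjusted p = 4.9e-08). KRT14, a keratin of basal epidermis, was higher with 117 counts in DKO and 21 in WT (2.50, SE 0.44, edgeR adjusted p = 0.0034), and KRT19 with 87 counts in DKO and 18 in WT (2.31, SE 0.48, edgeR adjusted p = 0.007). Both were at a low level, KRT14 at 1.12 FPKM in DKO and 0.20 FPKM in WT, and KRT19 at 1.15 FPKM in DKO and 0.24 FPKM in WT. The cytolinker gene PLEC was called lower (-0.47, SE 0.13, edgeR adjusted p = 0.023), but not when any sample other than DKO replicate 3 was left out. Without DKO replicate 3, 3 were higher and 6 lower, beside 74.6% of all genes called. Without any 1 WT sample, 2 were higher and 1 lower, and without DKO replicate 1 or 2, 3 and 1.

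Of 14 adherens junction and p120 family genes 12 were tested, with 2 higher, 6 lower and 4 not called (median -0.19). CDH1, which encodes E-cadherin, was at 0.10, 0.07 and 0.09 FPKM in DKO, against 4.78, 4.93 and 4.80 FPKM in WT (-5.69, SE 0.17, edgeR adjusted p = 4.4e-06). CDH3, P-cadherin, was lower too (-3.13, SE 0.24, edgeR adjusted p = 7.7e-05). CTNNA1, which encodes the actin-binding alpha-catenin, was higher, at 206 ± 3.95 FPKM in DKO and 105 ± 1.70 FPKM in WT (SD, n = 3 each; 1.03, SE 0.08, edgeR adjusted p = 9.6e-05), as was the nectin gene NECTIN1 (1.88, SE 0.15, edgeR adjusted p = 9.9e-05). The counts were 5 higher and 6 lower without DKO replicate 3, and 2 and 4 without any 1 of the other 5 samples.

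Hemidesmosomes fasten keratins to the basement membrane. Of 7 of their genes 6 were tested, with 0 higher, 4 lower and 2 not called (median -0.99). LAMA3, a laminin chain gene, was at 0.11, 0.10 and 0.11 FPKM in DKO, against 4.06, 4.10 and 3.78 FPKM in WT (-5.41, SE 0.17, edgeR adjusted p = 4.4e-06). The integrin gene ITGB4 (-4.90, SE 0.27, edgeR adjusted p = 2.1e-05) and the plakin gene DST (-0.88, SE 0.10, edgeR adjusted p = 0.00055) were lower as well. COL17A1, a collagen of the hemidesmosome, was called lower at a low level (-1.09, SE 0.27, edgeR adjusted p = 0.014), but not without WT replicate 3 (adjusted p = 0.054 by edgeR). Without DKO replicate 3, 1 was higher and 5 lower, and without DKO replicate 2, 1 and 4.

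Of 15 transcription factors tied to junction genes 10 were tested, with 4 higher, 2 lower and 4 not called (median 0.23). SNAI1, a repressor known to act on E-cadherin, was at 8.73, 8.45 and 9.41 FPKM in DKO, against 2.94, 2.57 and 2.80 FPKM in WT (1.73, SE 0.14, edgeR adjusted p = 0.00012). Its relative SNAI2 was at 10.5 ± 0.795 FPKM in DKO and 5.30 ± 0.159 FPKM in WT (SD, n = 3 each; 1.03, SE 0.11, edgeR adjusted p = 0.0004). ZEB1 (-0.40, SE 0.21, edgeR adjusted p = 0.16) and ZEB2 (0.08, SE 0.16, edgeR adjusted p = 0.72) of the same list were not called. Without DKO replicate 3, ZEB1 was called lower (-0.20, edgeR adjusted p = 0.0072) and ZEB2 higher (0.21, edgeR adjusted p = 0.019). TWIST1 had 0 counts in DKO and 1 in WT. KLF5, an epithelial factor, was at 6.37, 7.12 and 4.42 FPKM in DKO, against 25.24, 26.44 and 27.37 FPKM in WT (-2.11, SE 0.17, edgeR adjusted p = 9.5e-05). ELF3, another, had 3 counts in DKO and 250 in WT, a DKO level of 1.26% of WT (exact 95% counting interval 0.257 to 3.71%). Of the other factors of the list, KLF4 (1.27, SE 0.17, edgeR adjusted p = 0.0011) and GRHL3 (1.76, SE 0.31, edgeR adjusted p = 0.0035), both also found in epithelia, were higher. KLF4 was at 3.04 FPKM in DKO and 1.30 FPKM in WT, and GRHL3 at only 0.37 FPKM in DKO and 0.11 FPKM in WT. GRHL1, at 2.84 FPKM in DKO and 2.65 FPKM in WT, was not called (0.14, SE 0.14, edgeR adjusted p = 0.46). TP63, the p53 relative that drives desmosomal genes in stratified epithelia, had 0 counts in all 6 libraries. Leaving out DKO replicate 3 gave 6 higher and 3 lower.

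Of 14 genes for the assembly, transport, lipidation and shedding of desmosomal proteins all 14 were tested, with 1 higher, 3 lower and 10 not called (median -0.14). ATP2A2, the calcium pump gene of the endoplasmic reticulum that is mutated in human Darier disease, was higher, at 117.22, 123.16 and 118.93 FPKM in DKO, against 82.23, 78.85 and 83.50 FPKM in WT (0.59, SE 0.08, edgeR adjusted p = 0.0011). CAV1, caveolin-1, was at 63.0 ± 8.47 FPKM in DKO and 143 ± 2.55 FPKM in WT (SD, n = 3 each; -1.14, SE 0.10, edgeR adjusted p = 0.00013). RHOA (-0.55, SE 0.14, edgeR adjusted p = 0.016) and FLOT1 (-0.74, SE 0.21, edgeR adjusted p = 0.025) were called lower, but neither was without any 1 of the WT samples, and FLOT1 also not without DKO replicate 1 or 2. In those fits 1 was higher and 1 or 2 lower. Leaving out DKO replicate 3 gave 5 higher and 6 lower, beside 74.6% of all genes called.

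**Figure D5:**
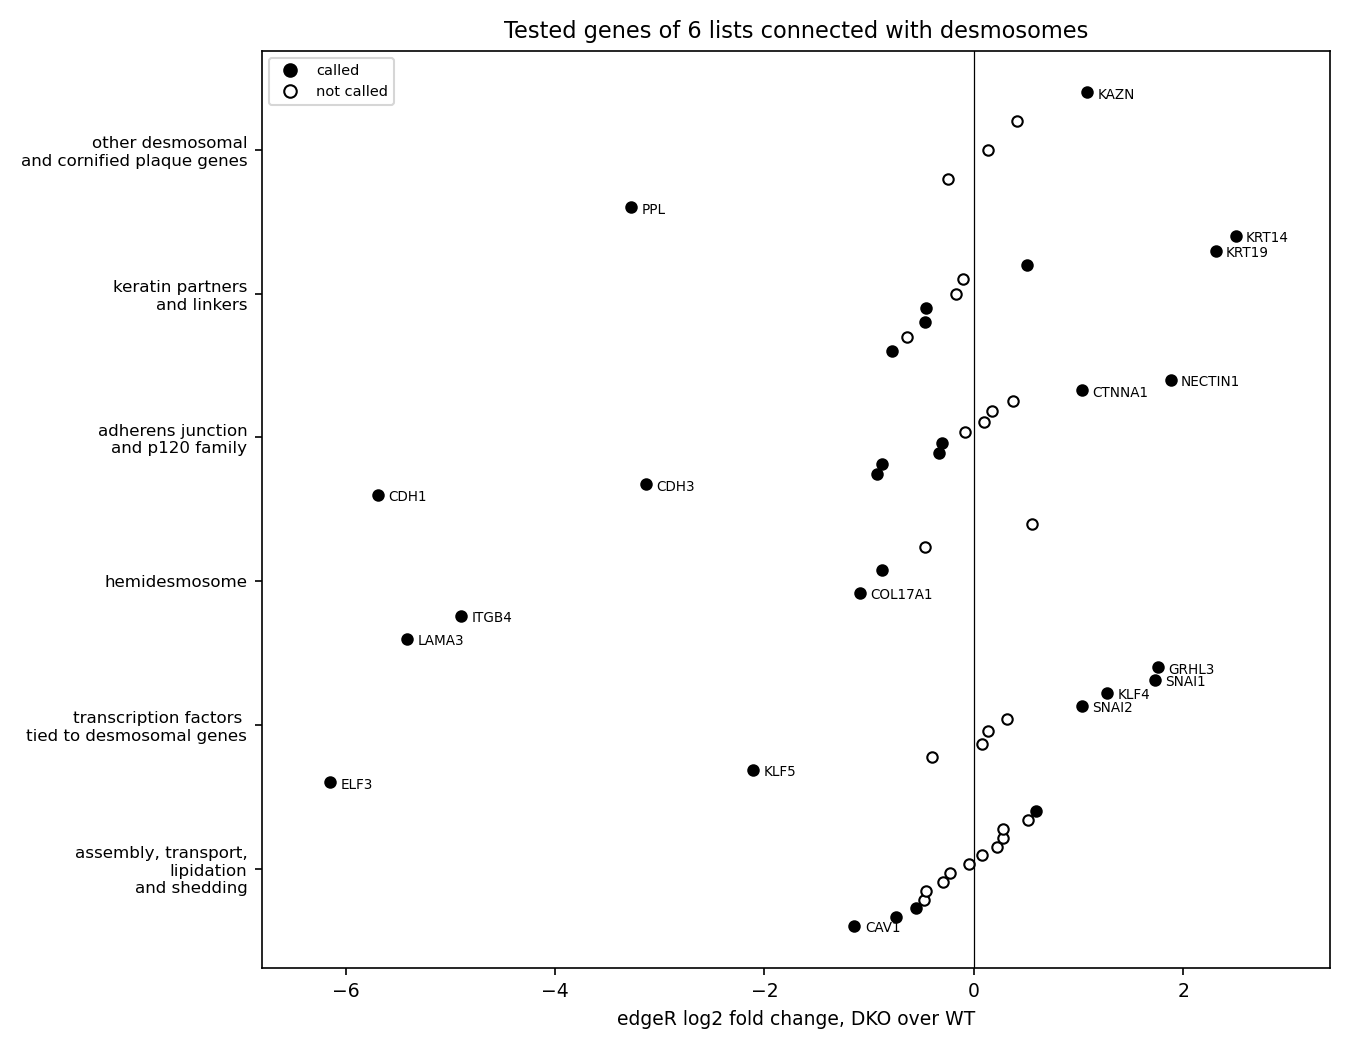
EdgeR log2 fold change, DKO over WT, of the tested genes of 6 lists; filled circles were called and open circles were not, and genes beyond 1 log2 unit are named. CDH1, LAMA3, ITGB4, PPL and ELF3 lie far to the left, as DSP and JUP did.

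Marker genes of other cell types were set beside the members. Of 10 epithelial markers 8 were tested, with 2 higher and 5 lower, beside 45.5% of all tested genes called. They summed to 529 to 691 FPKM per sample in DKO and 709 to 803 FPKM in WT. Most of that was KRT8 (451 FPKM in DKO, 508 FPKM in WT) and KRT18 (106 FPKM in DKO, 189 FPKM in WT). CLDN4 was at 0.823 ± 0.136 FPKM in DKO and 48.2 ± 3.13 FPKM in WT, ESRP1 had 0 counts in DKO and 196 in WT (at least 20.8-fold lower), and EPCAM was higher, at 32.0 ± 9.03 FPKM in DKO and 12.9 ± 0.930 FPKM in WT (SD, n = 3 each). Of 10 mesenchymal markers 7 were tested, with 2 higher and 4 lower. They summed to 1526 to 1581 FPKM in DKO and 3362 to 3452 FPKM in WT, nearly all of it VIM and FN1. VIM, not called, was at 1318 ± 51.4 FPKM in DKO and 1533 ± 20.3 FPKM in WT. FN1 was called lower, at 207 ± 21.8 FPKM in DKO and 1838 ± 57.1 FPKM in WT. COL1A1 was lower too (-2.75, SE 0.20), while PDGFRA (6.10, SE 0.20) and PDGFRB (3.23, SE 0.18) were higher. THY1, a fibroblast marker, had 0 counts in all 6 libraries and COL1A2 had 3 in DKO and 0 in WT. Of 5 markers each of endothelium, blood and heart muscle 1 per list was tested and higher (VWF, LYZ and ACTC1). The call of LYZ was lost without WT replicate 3 (edgeR adjusted p = 0.051), and that of ACTC1 without WT replicate 1 or 3 (edgeR adjusted p = 0.057 and 0.069). The endothelial list summed to 0.25 to 0.45 FPKM in DKO and 0.25 to 0.34 FPKM in WT, the blood list to 8.96 to 22.9 FPKM in DKO and 6.96 to 7.87 FPKM in WT, nearly all of it LYZ, and the heart list to 4.83 to 7.64 FPKM in DKO and 2.46 to 3.30 FPKM in WT. PTPRC, a blood cell marker under the filter on low counts, had 1 count in DKO and 31 in WT, a DKO level of 3.37% of WT (exact 95% counting interval 0.0828 to 20.2%). PECAM1, MYH6 and TNNT2 had at most 17 counts in any group. The part of these markers in the desmosome results was not tested.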

How the data were processed

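RNA was measured in 3 DKO and 3 WT samples of COS7 cells. Per the labels' protocols, total RNA was extracted with TRIzol and libraries were made with a dual-mode mRNA kit from BGI. The authors deposited 1 table of estimated counts and FPKM values per gene. Of the estimated counts, 5.8 to 6.5% per sample were not whole. The column headers only name FPKM, a unit that by definition is scaled to transcript length and library depth. The submitters' processing notes name HISAT and Bowtie2. Not given in the sources used here were versions, the counting program, the strand setting and the build. A further 9 columns hold other samples and were not used. The counts of all 10 members were whole in all 6 samples.

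Estimated counts were rounded and tested over the whole table with edgeR 4.0.16 in R 4.3.3 (quasi-likelihood test, TMM normalization, default filter by group with a minimum count of 10, Benjamini-Hochberg adjustment). Fold changes are DKO over WT. The SE was derived from the fold change and the F statistic (absolute log2 value over the square root of F), and it can understate counting error where counts are low. Where a group had 1 to 3 counts, ratios were taken from summed counts over effective library sizes with exact intervals. In a group with 0 counts, a floor of 3 counts per library was used.

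The members, gene lists and tests were chosen with earlier results of these data known. Named genes were the members, ATL2 and ATL3, up to 4 called members of each list with the smallest adjusted p (or up to 2 of the highest level), the 2 nearest genes on each side of DSP and of the cadherin cluster, and the 5 genes most like the member that fell most and the one that rose most. The neighbours of JUP and the markers named beyond this rule were chosen after their values were seen. So were KRT7, KRT8, VIM, TP63, KLF4, GRHL1, GRHL3, ZEB1, ZEB2 and TWIST1. Of the gene IDs, 16730 (92.7%) matched RefSeq. Promoter and protein sequences were not used here, and 1 gene of the lists is not reported here.

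The alternatives were leaving out each sample, a replicate block, no filter, 2 other normalizations, DESeq2 1.42.0 and limma 3.58.1 on log2(FPKM + 1) or log2(FPKM + 0.1), with and without a filter at 1 FPKM in 3 samples, and stricter thresholds. The test was tried on simulated data for DKO against WT (13094 genes). It found 4% of the 100 genes set to change 1.5-fold, 54% of the 50 set to 2-fold and 96% of the 50 set to 4-fold. Of its calls 7.1% were false, and of the calls of DESeq2 on the same simulated data 24.6%. Far fewer genes were changed there than the 45.5% called in the data. The adjusted p depends on that share, so these rates need not hold for the data.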

Additional observations from a re-analysis of the deposited data

How the results depend on the processing

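The number of desmosome genes called was 6 in most settings: with the replicate block, no filter, RLE or upper-quartile normalization, DESeq2, unfiltered limma, an adjusted p below 0.01, and without any 1 sample except DKO replicate 3, where it was 8. Filtered limma called 5 of 8, as DSC3 fell under its filter. For the fits with no filter, other normalizations, DESeq2 or limma the share called over all genes is not given here. Their counts of members are therefore read no further. Under a 2-fold limit (log2 of 1), 3 members were called, since PKP2, PKP3 and DSG2 lay under it. Over the members' 124 fold changes in other settings no direction changed and no call was lost, while 2 were gained, PKP4 and PERP without DKO replicate 3. The members were chosen on this contrast in these samples, so such steadiness can follow from the choice. Over all genes 5959 were called, 4266 to 9880 when 1 sample was left out (9880 without DKO replicate 3), 3902 at an adjusted p below 0.01, and 2872 under the 2-fold limit. The 620 fold changes of other named genes leave out KRT7, VIM, GRHL1, ZEB1 and ZEB2. Of the 620, 29 lost a call, 3 gained one (B4GALT6, P3H4 and KRT8, without DKO replicate 3) and 3 changed sign. RIOK1 (-0.27 to 0.02 when 1 sample was left out) and CDH2 (-0.2 to 0.09) did so without DKO replicate 3, where CDH2 was also called, and KRT8 (-0.33 to 0.01) without DKO replicate 1. The cause was not tested.

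The deviations of same-numbered samples from their group means had correlations of 0.022, -0.284 and -0.29. DKO replicate 3 lay far from the other DKO samples, so the DKO deviations were set largely by that library. Such correlations therefore cannot show whether same-numbered samples shared a day or batch, and no label says that the numbers mark this. With the replicate block 4485 genes and 6 desmosome genes were called; CTNNB1 (adjusted p = 0.089), FKBP10 (0.087) and COL17A1 (0.054) were not. WT replicate 2 correlated best with DKO replicate 3 (0.306) and WT replicate 3 with DKO replicate 2 (0.27). Depth limits DSC3 and PKP1 in both groups and DSP in DKO.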
